A study of Rattus norvegicus with 12 samples.

Results

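Inward rectifier K+ channels and the ATP-sensitive K+ channels built from them were represented on the arrays by 9 genes, Kcnj2, Kcnj4, Kcnj8, Kcnj10, Kcnj11, Kcnj12, Kcnj16, Abcc8 and Abcc9, written in capitals from here on. The genes were chosen with earlier results of these data known. Their probes were taken by name alone, as those whose gene name, with the suffixes for predicted or mapped genes removed, was one of these symbols. Each gene had 1 probe, so that 9 of the 41012 probes and 9 of 35716 gene names were members. The cells were dissociated hippocampal cultures from E18.5 Sprague-Dawley rat embryos, plated at high density and treated for 48 h from 10 to 13 days in vitro. CTL cultures received vehicle, named as 0.1% DMSO in the sample labels and as water in the study's methods. TTX cultures received tetrodotoxin at 0.5 to 1 μM, which blocks voltage-gated Na+ channels and silences firing. BC cultures received bicuculline at 20 μM, which blocks GABAA receptors and, applied acutely in the study, brought on burst firing. Each group had 4 one-color arrays. Whether its RNA samples came from different cultures is not stated, and the spread behind each p-value may therefore be a technical one. All groups were mixed cultures of neurons and glia. The study's immunostaining of its cultures found most cells to be neurons and only a small part to carry the glial marker GFAP. In such bulk RNA fewer cells of a type and less RNA per cell cannot be told apart.

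Inward rectifiers pass K+ into the cell more readily than out of it, and so hold the membrane near the K+ equilibrium potential at rest while shutting during depolarization. KCNJ10 and KCNJ16 encode Kir4.1 and Kir5.1, which astrocytes and oligodendrocyte lineage cells assemble into homomeric Kir4.1 or mixed Kir4.1/Kir5.1 channels that carry K+ uptake around active neurons. KCNJ2, KCNJ4 and KCNJ12 encode Kir2.1, Kir2.3 and Kir2.2, the strong rectifiers of neuronal and muscle membranes. KATP channels join a pore of KCNJ11 (Kir6.2) or KCNJ8 (Kir6.1) with a sulfonylurea receptor, ABCC8 (SUR1) or ABCC9 (SUR2), and close as ATP rises. The pair of KCNJ11 and ABCC8 is the usual neuronal and beta-cell form, whereas KCNJ8 and ABCC9 are known from pericytes and smooth muscle. In the GRCr8 assembly of the rat genome 3 pairs of these genes are next to each other with 0 protein-coding genes between them, namely KCNJ16 and KCNJ2 on chromosome 10, KCNJ11 and ABCC8 on chromosome 1, and KCNJ8 and ABCC9 on chromosome 4.

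The results turn mainly on the probes of KCNJ10, KCNJ16, KCNJ4 and KCNJ12, whose sequences are shown because each level below is read from that one stretch of the transcript. The array annotation places them in rn4 at chr13:88370316-88370375 on the plus strand for KCNJ10, chr10:100515861-100515920 on the plus strand for KCNJ16, chr7:117602501-117602560 on the minus strand for KCNJ4 and chr10:47214856-47214915 on the plus strand for KCNJ12. Over the 36 pairs of the 9 probes the longest run of bases shared by a pair was 4 to 7 bases long. The 60 bases of KCNJ10 and KCNJ4 are given whole and those of KCNJ16 and KCNJ12 by their first 30, in lower case throughout.
KCNJ10: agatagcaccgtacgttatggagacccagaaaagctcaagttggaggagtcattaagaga
KCNJ16: caatatcttatctcctaagcacaacagatg
KCNJ4: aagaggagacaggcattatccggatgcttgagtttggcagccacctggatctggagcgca
KCNJ12: gagcaggtcctagccatggtgggagaaggc

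RefSeq start sites in GRCr8 were given for 6 of the 9 genes, and the 250 bases before the start are shown for KCNJ10 and KCNJ16, the pair that moved together with TTX. These lie at chr13:87334260-87334509 and chr10:96517074-96517323, both on the plus strand, and the start listed for KCNJ16 lies inside the gene rather than at its first base. Capitals mark matches on either strand to the GC box GGGCGG, the CCAAT box CCAAT, the AP-1 motif TGANTCA and the E-box CANNTG, none of which overlapped another.
KCNJ10: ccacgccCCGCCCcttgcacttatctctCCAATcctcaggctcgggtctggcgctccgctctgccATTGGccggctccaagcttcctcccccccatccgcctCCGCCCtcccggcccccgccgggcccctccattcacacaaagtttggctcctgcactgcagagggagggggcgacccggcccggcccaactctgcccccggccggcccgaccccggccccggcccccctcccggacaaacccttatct
KCNJ16: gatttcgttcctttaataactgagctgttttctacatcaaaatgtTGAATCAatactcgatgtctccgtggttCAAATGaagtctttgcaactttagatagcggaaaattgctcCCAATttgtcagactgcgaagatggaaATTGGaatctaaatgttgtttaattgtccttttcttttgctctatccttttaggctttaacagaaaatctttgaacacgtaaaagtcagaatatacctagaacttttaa

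The windows differed widely in composition, with 72.4% G and C and 20 CpG dinucleotides before KCNJ10 against 33.6% and 6 before KCNJ16. Over the 33469 promoters of the table the median was 51.2% G and C. Both windows held 2 CCAAT matches, a motif found in 11385 of the promoters. KCNJ10 alone of the pair held the GC box, 2 times (30.5% of promoters), and KCNJ16 alone held an AP-1 match (6.34%) and an E-box (65.5%), each 1 time. Neither window held TATAAA (12.9%) or the CRE core TGACG (18.2%), both searched on either strand.

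Between 74.1% and 78.1% of the probes on an array were well above background by the scanner software. Each of 4 slides carried an array of every group. After the group means were removed the arrays of slides 1 and 3 deviated together and so did those of slides 2 and 4 (correlation over probes 0.20 to 0.41 between groups within these slide sets, and −0.39 to −0.20 between them). Each called result of a member against CTL is therefore given within slides too. Of the 9 genes, 6 were well above background on all 12 arrays and ABCC9 on 11. KCNJ2 and KCNJ8 were not well above background on any of the 12 arrays, and no fold change is given for either. Log2 signals are quantile-normalized values of 1 probe and can be compared between arrays but not between genes.

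**Figure D1:**
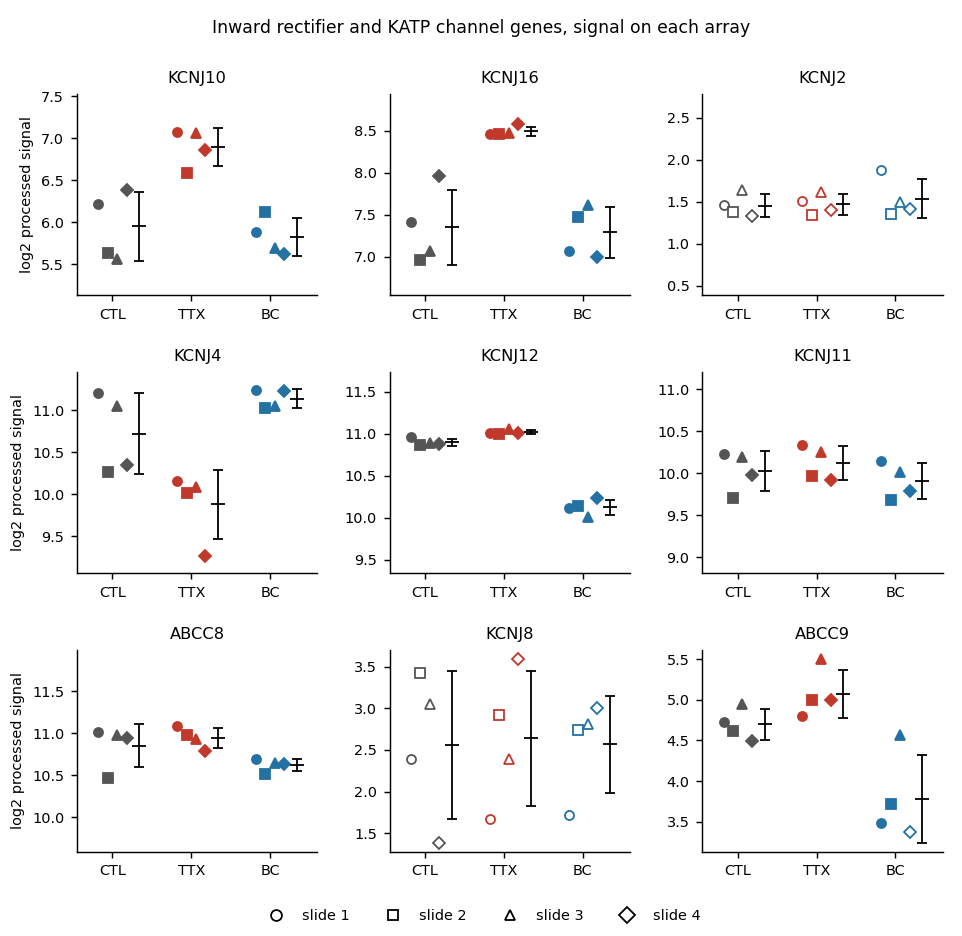
Log2 processed signal of each gene (y axis, in log2 units) on the 4 CTL, 4 TTX and 4 BC arrays, with symbols for slides 1 to 4, open symbols where the spot was not well above background, and bars for the mean ± SD of a group. All TTX arrays lie above all CTL and BC arrays for KCNJ10 and KCNJ16, all BC arrays lie below the others for KCNJ12, and all TTX arrays lie below the others for KCNJ4.

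Silencing with TTX raised the glial rectifier genes. KCNJ10 and KCNJ16 were the 2 of 9 genes called in TTX against CTL, both higher, at a limma FDR under 0.05 with a fold change of at least 1.5. Over all probes 4.18% were called in this comparison, 1.45% higher and 2.73% lower. The groups did not overlap in 4 of the 9 genes, KCNJ4, KCNJ10, KCNJ12 and KCNJ16, against 15.8% of probes.

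KCNJ10 (Kir4.1) had log2 signals of 6.22, 5.57, 5.64 and 6.39 on CTL arrays 1 to 4. On TTX arrays 1 to 4 they were 7.06, 7.08, 6.86 and 6.59, so that the lowest TTX array lay above the highest CTL array. KCNJ10 rose by 0.94 ± 0.20 (SE, n = 4 per group) on the log2 scale with TTX, a fold of 1.92 (limma adjusted p = 0.0133). Within slides 1 to 4 the difference was 0.86, 0.95, 1.49 and 0.47, positive on each, and with slide as a block the adjusted p was 0.0205. TTX and CTL arrays of the same replicate number deviated together, and they also lay in the same slide set. Once that number entered the fit as a replicate block KCNJ10 lost its call, at a limma adjusted p of 0.0573 over 3 groups and 0.0828 over the 2 groups alone. Its call also depended on background subtraction, since without it the difference was 0.58 and with normexp 0.53, under the 1.5-fold limit, at limma adjusted p values of 0.00586 and 0.00434.

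KCNJ16 (Kir5.1), the partner subunit, had log2 signals of 7.41, 7.07, 6.97 and 7.96 on CTL arrays. The 4 TTX arrays were tightly grouped at 8.47, 8.46, 8.58 and 8.45, all above the CTL arrays. KCNJ16 rose by 1.14 ± 0.21 (SE, n = 4 per group), a fold of 2.20 (limma adjusted p = 0.00615). The difference within slides 1 to 4 was 1.04, 1.49, 1.40 and 0.62, and the adjusted p with slide as a block was 0.0151. With the replicate block over TTX and CTL arrays alone KCNJ16 kept its call at an adjusted p of 0.0443. It lost the call with each group averaged within a slide set (adjusted p = 0.0534) and with that pairing as a random block (adjusted p = 0.0691). CTL replicate 4 was the highest CTL array for both glial genes, and on its slide the differences of both were the lowest of the 4.

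The strong rectifiers of the Kir2 group did not follow the glial pair. KCNJ4 (Kir2.3) had log2 signals of 11.21, 11.06, 10.26 and 10.35 on CTL arrays and of 10.08, 10.16, 9.26 and 10.01 on TTX arrays. Every TTX array lay below every CTL array. The difference was −0.84 ± 0.25 (SE, n = 4 per group), a fold of 0.559, at a limma adjusted p of 0.0588, which misses the threshold.

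The CTL arrays of KCNJ4 split by slide set, with 11.21 and 11.06 on slides 1 and 3 and 10.26 and 10.35 on slides 2 and 4. Within slides 1 to 4 the TTX difference of KCNJ4 was −1.05, −0.25, −0.97 and −1.09. With slide as a block the limma adjusted p was 0.0284. It was 0.0132 with the slide set as a block, but the slide sets were read from these same arrays. With the arrays of a slide set averaged it was 0.148, and with them as a random block 0.16. KCNJ4 was called lower under 9 of 27 alternative settings, among them normexp, the median signal and the deposited values, with adjusted p values of 0.0132 to 0.16 over all of them.

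KCNJ12 (Kir2.2) was nearly flat with TTX. Its log2 signals were 10.97, 10.89, 10.87 and 10.88 on CTL arrays and 11.06, 11.01 and 11.01 on TTX replicates 1 to 3, with replicate 4 the lowest TTX array. The groups did not overlap, yet the difference was only 0.12 ± 0.06 (SE, n = 4 per group; 95% interval −0.00 to 0.25; limma adjusted p = 0.249). KCNJ2 (Kir2.1) stayed between 1.33 and 1.64 on CTL and between 1.34 and 1.62 on TTX arrays, not well above background on any of them.

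None of the 4 KATP genes was called by limma with TTX, with unadjusted p values of 0.551 for KCNJ11, 0.444 for ABCC8, 0.16 for ABCC9 and 0.875 for KCNJ8. KCNJ11 (Kir6.2), the pore of the neuronal form, ranged from 9.71 to 10.23 on CTL and from 9.92 to 10.34 on TTX arrays, and the ranges overlapped (difference 0.09, 95% interval −0.24 to 0.42). ABCC8 (SUR1), its receptor, ranged from 10.47 to 11.02 on CTL and from 10.79 to 11.08 on TTX arrays (difference 0.09, 95% interval −0.17 to 0.35). Both intervals lie within the 1.5-fold limit. ABCC9 (SUR2) ranged from 4.49 to 4.95 on CTL and from 4.80 to 5.50 on TTX arrays, with a difference of 0.37 ± 0.25 (SE, n = 4 per group; limma adjusted p = 0.456), and KCNJ8 (Kir6.1) was not well above background.

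**Figure D2:**
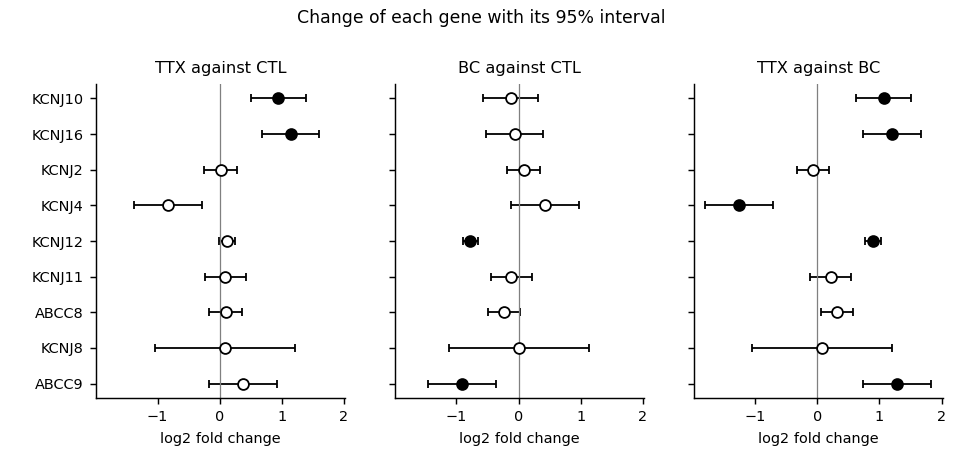
Log2 fold change (x axis) of each gene for both treatments against CTL and for TTX against BC, with 95% intervals from limma and filled points for called genes. With TTX the points of KCNJ10 and KCNJ16 lie at 0.94 and 1.14, and with BC those of KCNJ12 and ABCC9 lie at −0.77 and −0.91.

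Treatment with BC changed other members. KCNJ12 and ABCC9 were the 2 of 9 genes called in BC against CTL, both lower, where 3.64% of probes were called, 2.12% higher and 1.52% lower. The groups did not overlap for 1 gene, KCNJ12, against 13.8% of probes. This comparison uses the same 4 CTL arrays as that of TTX.

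KCNJ12 had log2 signals of 10.23, 10.14, 10.12 and 10.01 on BC arrays 1 to 4, all below the lowest CTL array at 10.87. KCNJ12 fell by 0.77 on the log2 scale (SE 0.06, n = 4 per group), a fold of 0.585 (limma adjusted p = 3.93e-05). The call was lost with the replicate block over the 2 groups alone (adjusted p = 0.0502) and with the arrays of a slide set averaged (adjusted p = 0.0715), a setting under which limma called 0 of all probes in this comparison and 9133 had an unadjusted p under 0.05. Within slides 1 to 4 the difference was −0.85, −0.72, −0.87 and −0.65. Its SE was the lowest of the 9 genes, with an SD among arrays of 0.04 in CTL, 0.03 in TTX and 0.09 in BC.

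ABCC9 had log2 signals of 4.73, 4.95, 4.62 and 4.49 on CTL arrays and of 3.38, 3.71, 3.48 and 4.57 on BC arrays. BC replicate 1 was not well above background, and BC replicate 4 lay among the CTL arrays. The fall of ABCC9 was −0.91 ± 0.25 on the log2 scale (SE, n = 4 per group), at a limma adjusted p of 0.048. The difference was −1.25, −0.90, −0.38 and −1.12 within slides 1 to 4, and the call was lost under 18 of 27 alternative settings, among them the loss of CTL replicate 1, 2, 3 or 4, BC replicate 1, 2 or 3 or TTX replicate 2, 3 or 4, with limma adjusted p values of 0.0594 to 0.135.

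Neither gene of the glial pair was called with BC by limma, and neither had an unadjusted p under 0.05. KCNJ10 ranged from 5.62 to 6.12 on BC arrays, inside the span of the CTL arrays (difference −0.13, 95% interval −0.57 to 0.32). KCNJ16 lay between 7.07 and 7.61 on BC replicates 2 to 4 and lower on replicate 1 (difference −0.06, 95% interval −0.52 to 0.40). Within slides the sign of both differed, as KCNJ10 was lower with BC on slides 1 and 4 and higher on slides 2 and 3, and KCNJ16 likewise.

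KCNJ4 had log2 signals of 11.23, 11.03, 11.24 and 11.06 on BC arrays, level with the higher pair of CTL arrays. The difference was 0.42 ± 0.25 (SE, n = 4 per group; limma adjusted p = 0.427). It did not hold within slide sets, being 0.02 on slides 1 and 3 and 0.82 on slides 2 and 4. KCNJ11 gave −0.12 (95% interval −0.45 to 0.21) and ABCC8 −0.23 (95% interval −0.49 to 0.03).

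**Figure D3:**
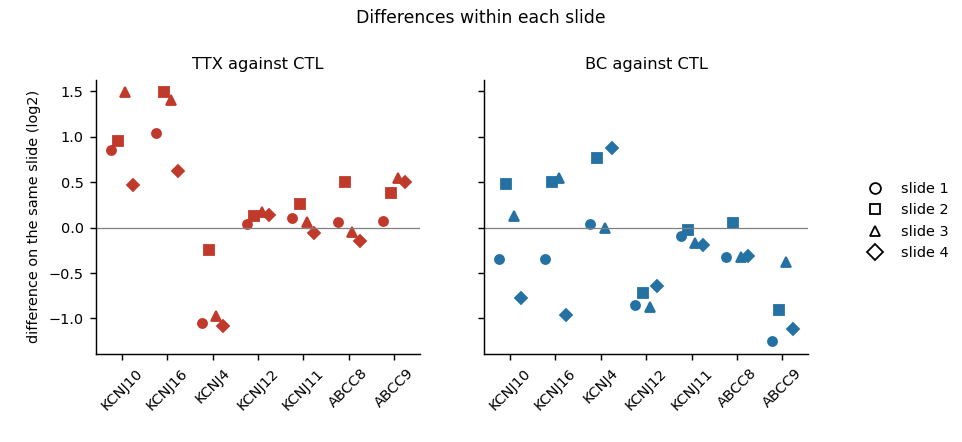
Difference in log2 signal between the TTX or BC array and the CTL array of the same slide (y axis) for the 7 genes well above background on most arrays, with a symbol per slide. KCNJ10 and KCNJ16 lie above 0 on each slide with TTX and on both sides of 0 with BC, and KCNJ12 lies between −0.87 and −0.65 with BC.

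Set directly against each other, TTX and BC cultures differed in 5 of the 9 genes, 4 higher and 1 lower with TTX. In this comparison 11.2% of probes were called, 4.95% higher and 6.22% lower, and 10.9% of genes. The groups did not overlap for 6 genes, against 26.6% of probes. KCNJ10 was higher with TTX by 1.07 ± 0.20 (adjusted p = 0.00268), KCNJ16 by 1.20 ± 0.21 (adjusted p = 0.00167), KCNJ12 by 0.90 ± 0.06 (adjusted p = 1.77e-06) and ABCC9 by 1.29 ± 0.25 (adjusted p = 0.00316), all by limma with the SE and n = 4 per group. KCNJ4 was lower with TTX by −1.26 ± 0.25 (limma adjusted p = 0.00355), and its calls here and those of KCNJ10, KCNJ12 and KCNJ16 stood under all 27 alternative settings. The call of ABCC9 was lost under 4 of the 27. Its difference was 0.41 with normexp, 0.38 with the median signal and 0.38 with the deposited values, under 1.5-fold at limma adjusted p values of 0.000295, 0.00218 and 0.00242, and with the replicate block over the 2 groups alone the adjusted p was 0.0742. Within slides 1 to 4 the difference of KCNJ4 was −1.08, −1.01, −0.97 and −1.97. ABCC8 was higher by 0.32 with no overlap of the groups, at a limma adjusted p of 0.0724. KCNJ11 differed by 0.21 (95% interval −0.12 to 0.54).

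Glial and neuronal rectifiers were also compared array by array. For each array the deviation from the CTL mean was averaged over KCNJ10 and KCNJ16 and over KCNJ2, KCNJ4, KCNJ11 and KCNJ12, and the second mean was taken from the first. KCNJ2, at background on every array, is 1 of the 4 genes of the second mean. Of the others KCNJ4 differed from CTL by −0.84 with TTX, against 0.09 for KCNJ11 and 0.12 for KCNJ12. A negative second mean on TTX arrays thus comes from KCNJ4 and is not shared by the neuronal genes. On TTX arrays 1 to 4 the glial mean deviation was 1.11, 1.11, 1.07 and 0.87, and the neuronal one was −0.02, −0.02, −0.37 and −0.19. Glial minus neuronal was thus 1.13, 1.14, 1.44 and 1.06 on TTX arrays, above each CTL array at −0.03, −0.50, −0.13 and 0.66. On BC arrays it was −0.24, 0.37, −0.25 and 0.13, which lies within the CTL span. The mean over TTX arrays was 1.19, and 1.25 with KCNJ2 left out, an alternative added after the data were seen. No test was made, since the glial genes largely set the value.

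**Figure D4:**
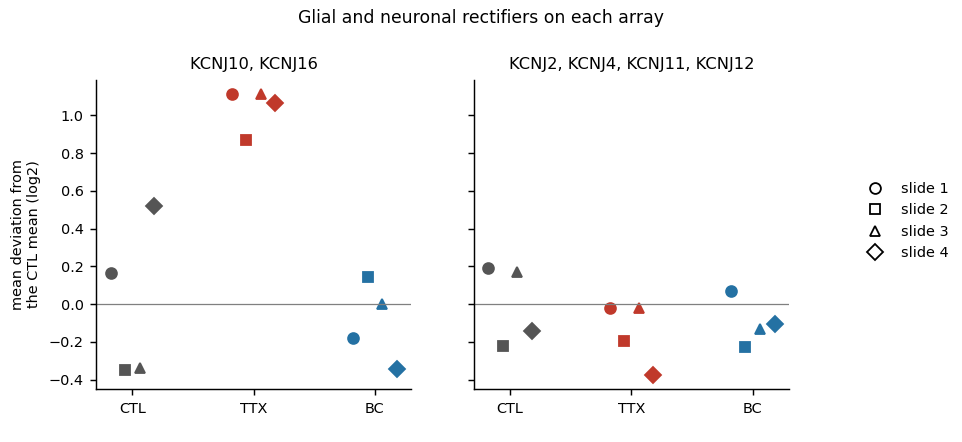
Mean deviation from the CTL mean in log2 units (y axis) over KCNJ10 and KCNJ16 (left) and over KCNJ2, KCNJ4, KCNJ11 and KCNJ12 (right) on each array, with a symbol per slide. The glial mean lies between 0.87 and 1.11 on the TTX arrays and between −0.35 and 0.52 on CTL arrays, while the neuronal mean stays between −0.37 and −0.02 on the TTX arrays.

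Other genes of the cell types that carry Kir4.1 were counted in lists of markers. Of 18 astrocyte markers, all well above background on the 12 arrays, 1 was called, FABP7, a fatty acid binding protein of radial glia and immature astrocytes, which rose by 0.63 (limma adjusted p = 0.000935). GFAP, the astrocyte intermediate filament, differed by −0.00, AQP4, the water channel of astrocyte endfeet, by 0.07, SLC1A2, the glutamate transporter GLT-1, by 0.18, GJA1, connexin 43, by 0.39, and ALDH1L1, a folate enzyme of astrocytes, by 0.45 (limma adjusted p = 0.0261, fold under 1.5), none called. Of the 18, 4 had an unadjusted p under 0.05 with TTX, and 12 had a positive and 6 a negative difference. The median of the list was 0.18, beside 0.01 over all genes, of which 4.17% were called. The summed signal of the list was 264600 to 349000 on TTX and 229400 to 290700 on CTL arrays, and the groups overlapped. With BC 0 of the 18 were called by limma, and 1 had an unadjusted p under 0.05 (median −0.03, sum 249600 to 293800), where 3.6% of all genes were called. The part of glial cell number or glial RNA in the rise of KCNJ10 and KCNJ16 was not tested.

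Of 14 measured oligodendrocyte lineage markers, PDGFRA, the receptor of precursor cells and also on the fibroblast list below, fell with TTX by 0.79 (limma adjusted p = 0.0127). MBP (0.06) and SOX10 (0.02) were not called, and a further called gene of the list is not reported here. Of the 14, 11 had a positive and 3 a negative difference with TTX, and 5 had an unadjusted p under 0.05. The summed signal of the list was 44440 to 71240 on TTX and 32650 to 51970 on CTL arrays. TTX replicate 4 was the lowest TTX array, as it was for KCNJ10 and for the summed astrocyte, astroglial clearance and ependymal lists. The list median was 0.16 with TTX and −0.01 with BC, when limma called none of the 14 and 0 had an unadjusted p under 0.05. The part of this lineage in the rise of the glial pair was not tested.

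Of 7 measured ependymal and choroid plexus genes 1 was called with TTX. This was FOXJ1, the transcription factor of motile cilia, which rose by 0.72 (limma adjusted p = 0.00121). The summed signal of that list did not overlap between groups, at 4047 to 4951 on TTX and 2386 to 3075 on CTL arrays (list median 0.35). The largest terms of that sum were FOXJ1 itself and TTR, which was not called. The part of this list in the rise of the glial pair was not tested. With BC limma called none of the 7, and 1 had an unadjusted p under 0.05 (median −0.08). Of 11 microglia markers limma called none with TTX (median 0.06) or BC (median −0.06), and 2 had an unadjusted p under 0.05 in each. AIF1, a defining microglia marker, was well above background on none of the 12 arrays, whereas CSF1R was on all of them.

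**Figure D5:**
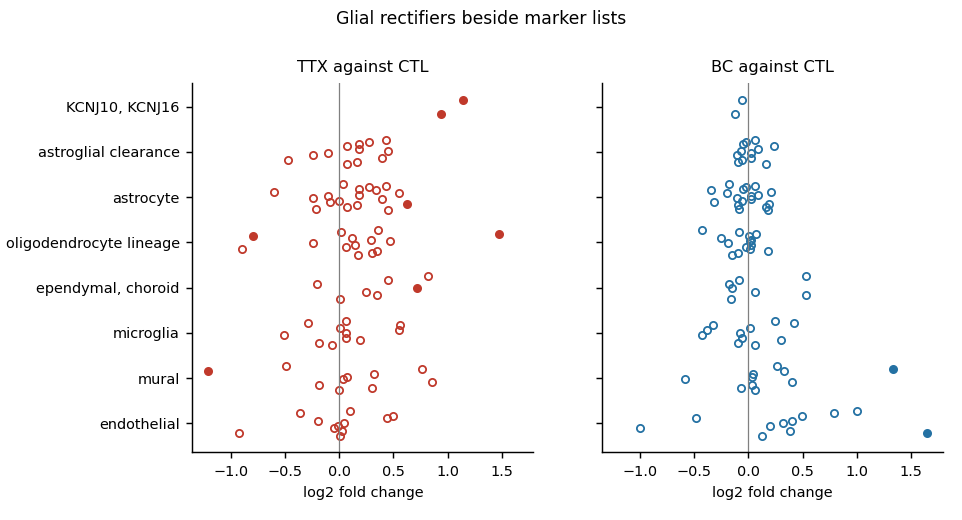
Log2 fold change (x axis) with TTX (left) and BC (right) of KCNJ10 and KCNJ16, of 12 genes of astroglial K+, water and glutamate clearance and of the genes of 6 marker lists, 1 point per gene and filled where called. KCNJ10 and KCNJ16 lie at 0.94 and 1.14 with TTX, above each gene of the clearance list and each astrocyte marker.

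Genes that work beside Kir4.1 in clearance were counted as a list. None of 12 genes of astroglial K+, water and glutamate clearance was called by limma with TTX (median 0.18), with BC (median 0.00) or in TTX against BC (median 0.16), while 2, 1 and 5 of them had an unadjusted p under 0.05. ATP1B2, the glial Na+/K+ pump subunit, had the lowest TTX value at −0.47 (limma adjusted p = 0.0039, fold under 1.5), a gene named after its values were seen. The list shares 9 genes with the astrocyte markers.

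Of 13 measured Kir anchoring proteins, TTX lowered AKAP5, which ties kinases to the postsynaptic membrane, by −1.05 (limma adjusted p = 2.19e-06) and LIN7B, a PDZ partner of Kir2 channels, by −0.85 (limma adjusted p = 0.000706). BC lowered LIN7B by −0.60 and raised its paralog LIN7A by 1.06, at limma adjusted p values of 0.00647 and 0.000265. In TTX against BC 3 of the 13 were called, all lower. DLG4, PSD-95, to which Kir2 channels bind, differed by 0.09 with TTX and −0.06 with BC. List medians were −0.10 with TTX and −0.03 with BC.

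The 8 other Kir genes gave no limma call with TTX (median 0.03), where 2 had an unadjusted p under 0.05, and 1 with BC (median 0.12). KCNJ5, a G protein-gated Kir3 subunit, was well above background on 4 BC arrays, 1 CTL array and no TTX array, and was called higher with BC (limma adjusted p = 0.0213). KCNJ9, also of the Kir3 group, was lower in TTX against BC by −0.73 (limma adjusted p = 0.000403). Among 8 ABCC transporters other than the sulfonylurea receptors none was called with TTX (median 0.14), although 3 had an unadjusted p under 0.05, and ABCC6 rose with BC by 1.08 (limma adjusted p = 0.0122; list median 0.06).

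Mural and endothelial markers were counted for ABCC9 and KCNJ8. Of 10 measured mural cell markers, RGS5, a pericyte gene, was called lower with TTX (limma adjusted p = 0.0191) from a level well above background on 2 CTL arrays and no TTX array, and TAGLN, of smooth muscle, was called higher with BC, by 1.33 (limma adjusted p = 0.00671). PDGFRB, the pericyte receptor, was well above background on all arrays and differed by 0.32 with TTX and 0.04 with BC. List medians were 0.06 and 0.05, and the summed mural signal was 22470 to 43000 on CTL, 24740 to 47490 on TTX and 22700 to 45960 on BC arrays, overlapping throughout. Of 11 endothelial markers limma called none with TTX, where 1 had an unadjusted p under 0.05, and 1 with BC, CLDN5, a tight junction protein, higher from a level well above background on 2 of 4 CTL arrays (limma adjusted p = 0.00671), while PECAM1 was well above background on none of the 12 arrays (list medians 0.00 with TTX and 0.38 with BC). Of 8 fibroblast and meningeal genes 3 fell with TTX, the matrix proteoglycans LUM by 0.98 and DCN by 0.62, and PDGFRA, already counted with the oligodendrocyte lineage. With BC 3 rose, LUM by 0.85, DCN by 0.87 and FN1 by 0.73 (list medians −0.39 with TTX and 0.37 with BC). These rises stood beside a lower ABCC9, and their part in it was not tested.

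For the neuronal rectifiers the neuronal markers give the setting. RBFOX3, the nuclear protein NeuN, differed by −0.15 with TTX and −0.01 with BC, and SLC17A7, the vesicular glutamate transporter of hippocampal principal cells, by 0.18 and −0.29, none called. Of 10 glutamatergic neuron markers, NEUROD2, a transcription factor of these neurons, and SLC17A6, a second glutamate transporter, rose with TTX by 0.75 and 0.59 (list median 0.30), and NEUROD2 fell with BC by 0.72 (list median −0.29, 3 called lower). Of 16 GABAergic markers 8 fell and 1 rose with TTX (list median −0.65), among them GAD1, the GABA-making enzyme, by 1.56, and 2 rose and 1 fell with BC (list median 0.12). The part of GABAergic neurons in the values of KCNJ4 or KCNJ12 was not tested.

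The genes most like each member over the 12 arrays were sought among 11456 genes well above background on all of them, by Pearson correlation, given as a description since all points share the groups and slides. KCNJ12 was matched most closely, by NDRG1 (r = 0.993), HTR5B (0.981) and KLF4 (0.981), whose BC differences were −1.25, −0.81 and −1.01. KCNJ10 was nearest to RGCC (0.958), PLD1 (0.954) and IFI44 (0.953), with TTX differences of 0.52, 0.32 and 0.63. KCNJ16 was nearest to PCBD1 (0.958), AGO1 (0.939) and MTDH (0.934), members being left out of the search. KCNJ4 was nearest to PCDH8 (0.968), CRY2 (0.966) and CLEC16A (0.966), KCNJ11 to COG7 (0.987), FAM161A (0.978) and TBC1D10A (0.978), and ABCC8 to THADA (0.936), SAP130 (0.933) and PDE4DIP (0.932).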

How the data were processed

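RNA of 4 CTL, 4 TTX and 4 BC samples was measured on one-color Agilent rat arrays. The authors deposited scanner intensities from Feature Extraction 9.5.1.1, background-subtracted with a spatial detrend and not normalized between arrays, and quantile-normalized log2 values, in which 1131 values of BC replicate 2 are empty. The submitters' processing notes name limma. Processed intensities were taken to log2, spots flagged as outliers were left out (no member spot was), and the 12 arrays were quantile-normalized with no filter on dim probes. The means of the 3 groups were fitted in limma (version 3.58.1, R 4.3.3) with moderated variances. Calls required an FDR under 0.05 by Benjamini and Hochberg over all probes together with a change of at least 1.5-fold in either direction. Python 3.11.15, pandas 2.3.3 and matplotlib 3.10.9 were also used. Precision is limited by how many arrays there were.

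All members were named through their accessions in RefSeq on GRCr8. In the lists the brightest probe stood for a gene. A called gene of the oligodendrocyte list is not reported here. Named genes were the members, up to 4 called genes per list and comparison, defining markers, and the 3 genes most correlated with each member well above background on all arrays. The members and the lists were chosen with earlier results of these data known. The normalization and the limma fit of TTX against CTL were run on simulated arrays with independent noise and no slide differences.

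TTX and CTL arrays with the same replicate number correlated at 0.279 to 0.377 after removal of group means. These arrays lay in the same slide set, where arrays of different groups correlated at 0.197 to 0.41. BC arrays of that number lay in the other slide set and correlated at −0.377 to −0.241 with the others. Pairing by replicate number can therefore not be told apart from the slide set. Alternatives were other background corrections and normalizations, the deposited values, a filter on dim probes, slide, slide set and replicate blocks, fewer arrays, another variance moderation, no fold limit and the mean of a gene's probes. The replicate block over 2 groups and the omission of KCNJ2 were added after the data were seen.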

Additional observations from a re-analysis of the deposited data

Results flagged for a closer look

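In 3 of the 27 combinations of a gene and a group 1 array stood far from the other 3 by Dixon's ratio, the gap to the nearest array over the range of the group, which chance exceeds in about 1 in 20 groups. KCNJ4 in TTX had TTX replicate 3 at 9.26 below the other arrays at 10.01 to 10.16 (ratio 0.837), and without that array its difference from CTL was −0.63 (limma adjusted p = 0.129). KCNJ16 in TTX had TTX replicate 3 at 8.58 above 8.45 to 8.47 (ratio 0.867), where the SD of the group was 0.06. ABCC8 in CTL had CTL replicate 3 at 10.47 below 10.94 to 11.02 (ratio 0.862). The cause was not tested.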

How the results depend on the processing

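Of the 2 members called in TTX against CTL, 0 were called with the arrays of a slide set averaged or as a random block, where KCNJ16 had limma adjusted p values of 0.0534 and 0.0691 and KCNJ10 of 0.0801 and 0.109, and 1 (KCNJ16) with the replicate block, at which KCNJ10 had 0.0573 and ABCC9 in BC against CTL 0.118. Under normexp, the median signal, the deposited values and the replicate block over 2 groups the count stayed at 2 with KCNJ4 in place of KCNJ10. Of the 2 members called in BC against CTL, 1 (KCNJ12) was called with normexp, the median signal, the deposited values, the random block, the replicate block and only the 2 groups compared, and 0 with the arrays of a slide set averaged (KCNJ12 adjusted p = 0.0715) or the replicate block over 2 groups (0.0502). Averaging leaves fewer values to fit. Under it limma called 512 probes in TTX against CTL, 0 in BC against CTL and 4256 in TTX against BC. With the random block these numbers were 1150, 1015 and 3836. Why the member calls were lost was not tested. Leaving out 1 array gave 2 to 3 calls with TTX and 1 to 2 with BC. Dim genes moved most with background correction. The ABCC9 difference with BC lay between −1.17 and −0.23 over all settings, which include the loss of single arrays.

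Glial minus neuronal with TTX was 0.89 with normexp, 0.93 with the median signal and 0.92 with the deposited values, and 1.02 to 1.42 without 1 array. With BC, where it was 0.0045, it was −0.0021 with the 75th percentile and −0.16 to 0.22 without 1 array. The calls of TTX against BC numbered 4 or 5 under every alternative. The replicate block over 3 groups changed no other call of a member, and over 2 groups it also made the call of KCNJ4 with TTX (adjusted p = 0.0435) and ended that of ABCC9 in BC against CTL (0.283) and in TTX against BC (0.0742).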
